A study of Oryza sativa Indica Group with 4 samples.

Results

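Kinesins are motor proteins that use ATP to pull on or walk along microtubules, and plants sort them into numbered classes by their motor sequence. In dividing plant cells several classes build the spindle and others work in the phragmoplast, the microtubule array that lays down the new cell wall, while further members move organelles or guide wall deposition in growing cells. A young panicle is a tissue of dividing cells, in which the branches that will carry the grains are laid down. The kinesin motor genes described here are the genes of a RefSeq gene table whose symbol or synonym is KIN followed by a class number from 1 to 14 and an optional letter. Of 36 such genes in that table, 33 were paired with 37 probe sets of the array, among 17905 genes paired with probe sets in all. KIN12F, KIN14D and KIN14P had no paired probe set and are not analysed here. The table gives names and no descriptions, so membership rests on the names alone.

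RNA came from panicle primordia of Oryza sativa (Indica Group), at a stage the submitters number 0, and was measured on an Affymetrix rice array. The high grain number bulk pooled 10 recombinant inbred lines (RILs, inbred descendants of a cross) with many grains per panicle, and the low grain number bulk pooled 10 RILs with few, all derived from 2 cultivars that the labels do not name. Each bulk was measured in 2 biological replications, 4 arrays in all. The labels do not say what the replications share, lines within a bulk are not seen singly, and p-values measure only the spread between these arrays. Intensities below are quantile normalised, and differences are high minus low on the log2(intensity + 16) scale, where dim probe sets show less change than they had, with limma's standard error (SE). The number of arrays limits the precision.

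Of 57194 probe sets other than controls, 34316 were bright enough to be tested. The arrays as deposited had trimmed mean intensities of 39.0 and 40.5 in the high grain number bulks, against 36.5 and 55.3 in the low grain number bulks, so the scaling matters to small differences. Markers of the inflorescence meristem were present in all 4 arrays, with OSH1, a KNOX meristem gene, at 527 and 606 in the high bulks against 763 and 650.1 in the low bulks. Of the other meristem genes, MADS34 had 37.4 and 78.3 in the high bulks against 30.4 and 43.1 in the low bulks, and RFL 69.2 and 178 in the high bulks against 77.0 and 71.5 in the low bulks. LAX1, which marks axillary meristems, was dim, at 11.6 and 9.83 in the high bulks against 10.1 and 16 in the low bulks. RNA quality was read from the actin and GAPDH control probe sets. For actin the 3' over 5' ratio was 33.3 and 36.9 in the high bulks against 42.2 and 47.8 in the low bulks. The same ratio for GAPDH was 1.32 and 9.09 in the high bulks against 0.400 and 7.0 in the low bulks, so it differed more between replicate numbers than between the bulks, and for each number it was higher in the high bulk, where that of actin was lower.

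The comparison asked whether kinesin genes differ between the panicle primordia of high and low grain number lines. No kinesin gene passed the test. Of the 33 genes, 32 were bright enough to be tested, and 0 of these reached an adjusted p under 0.05 (limma, two-sided, Benjamini-Hochberg over all probe sets), against 0.568% of all probe sets tested (0.154% higher and 0.414% lower). The smallest adjusted p of a kinesin gene was 0.474, for KIN7A. At an unadjusted p under 0.05 there were 2, KIN7A higher and KIN10B lower, which is 6.25% of the kinesin genes tested against 8.24% of all probe sets (3.85% higher and 4.39% lower). The largest differences were a 1.51-fold higher intensity in the high bulks for KIN7A and a 1.44-fold lower one for KIN10B, on the scale with 16 added.

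**Figure D1:**
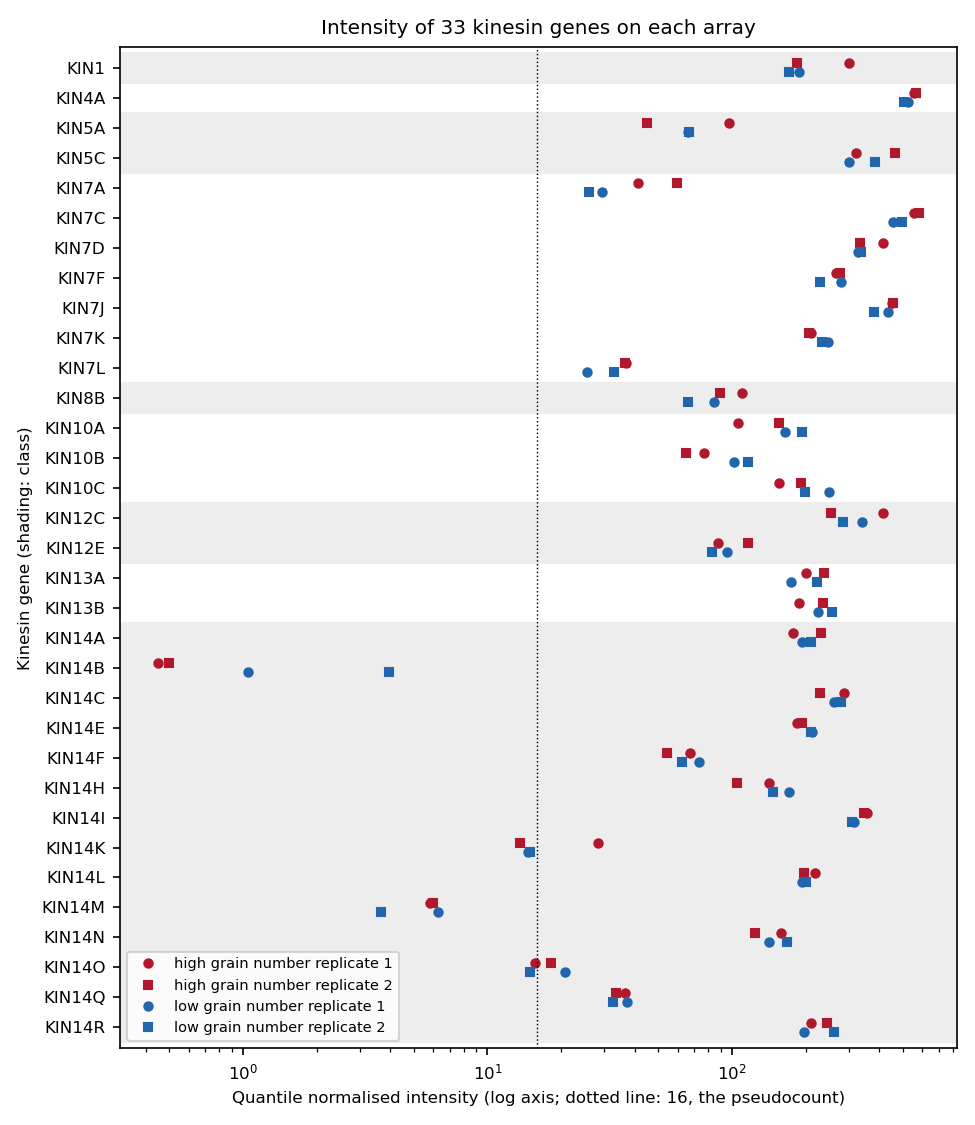
Quantile normalised intensity (log axis) of the 33 kinesin genes, 1 probe set per gene, with the high grain number arrays in red above the low grain number arrays in blue, circles for replicate 1 and squares for replicate 2, and classes set apart by shading. Most genes have their 4 values close together, and KIN14B and KIN14M lie below 16, the value added to each intensity, on all 4 arrays.

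Most differences were small. The median difference over the tested kinesin genes was 0.063 on the log2 scale, against 0.012 over all probe sets tested. Without high grain number replicate 1 these medians were 0.0063 and 0.0056, with 16 kinesin genes positive and 16 negative. The differences ran from -0.52 to 0.59, and 30 of 32 were smaller than 0.5 in size. The 95% interval of the difference lay within 2-fold either way for 31 of 32 genes, and only that of KIN7A, from 0.11 to 1.08, reached past it. These intervals rest on 2 arrays per group, with a spread that limma draws in part from all probe sets, and say nothing of other lines. In bulk tissue, fewer cells of a type and less RNA per cell cannot be told apart.

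The sign of the typical kinesin difference depended on the scaling. A positive difference was seen for 21 of 32 genes after quantile normalization, and a negative one for 11, against 52.1% and 47.9% of all probe sets. It was positive for 8 of 32 with the deposited scaling and for 8 of 32 with median centring. The median of all probe sets was also negative under both, and 14 of 32 kinesin genes lay above it under each. After quantile normalization 18 of 32 lay above that median. With the deposited scaling the kinesin median was -0.098 and that of all probe sets -0.075, and with median centring they were -0.095 and -0.072. The kinesin median minus that of all probe sets was 0.051 after quantile normalization and -0.023 with each of the other scalings. With quantile normalised values, both high arrays lay above both low arrays for 7 kinesin genes and below them for 6, in all 40.6% of those tested against 37.1% of all probe sets (19.6% above and 17.6% below). Under the deposited scaling 1 gene, KIN7A, lay above and 6 lay below. That was 21.9% in all, against 29.5% of all probe sets (9.62% above and 19.8% below).

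**Figure D2:**
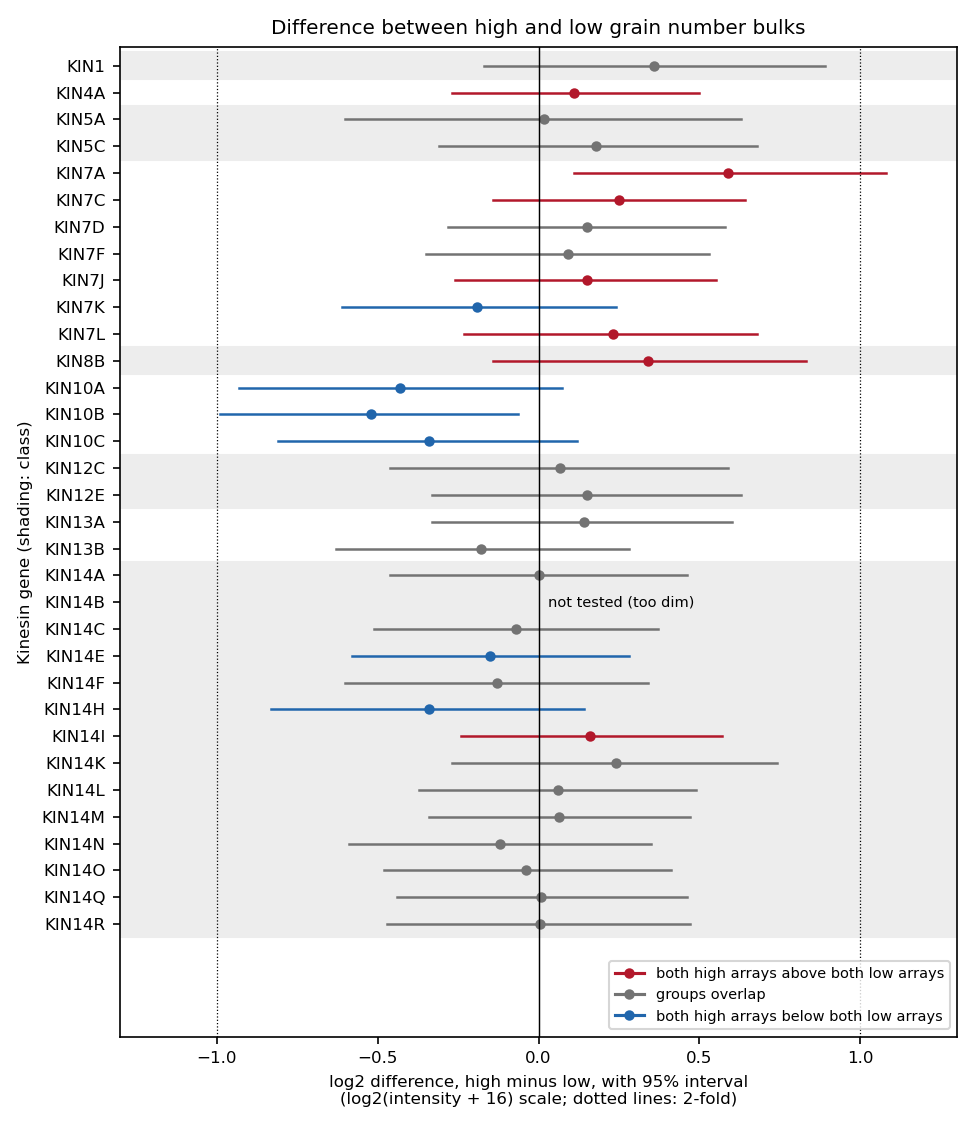
Log2 difference (high minus low grain number) of the 32 tested kinesin genes with its 95% interval from limma. Red marks genes with both high arrays above both low arrays, blue the opposite order and grey overlapping groups; the dotted lines mark 2-fold, which only the interval of KIN7A crosses.

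The kinesin-10 class stood lowest among the classes with more than 1 gene, with all 3 of its members lower in the high bulks and a class median of -0.43. None of the 3 passed the test. KIN10A (LOC4331094, also STD1) is a kinesin whose loss in rice gives stemless dwarf plants with faulty cell division. It had intensities of 106 and 156 in the high bulks against 165 and 193 in the low bulks (log2 difference -0.43 ± 0.23, limma adjusted p = 0.70). The groups did not overlap, though the higher of the high arrays lay close to the lower of the low arrays, and under the deposited scaling they did overlap, at 97.1 and 143 in the high bulks against 140.5 and 251 in the low bulks. Without high grain number replicate 1, the dimmer of the high arrays for this gene, the difference was -0.18. KIN10B (LOC4335606) had 77.0 and 65.1 in the high bulks against 102 and 116 in the low bulks (log2 difference -0.52 ± 0.21, limma adjusted p = 0.535). Its groups did not overlap under any of the 3 scalings, and its 95% interval ran from -0.99 to -0.063. KIN10C (LOC4339007) had 155 and 191 in the high bulks against 249 and 199 in the low bulks (log2 difference -0.34 ± 0.21, limma adjusted p = 0.761). For KIN10C the second high array and the second low array were nearly level, and leaving out 1 array in turn gave differences from -0.49 to -0.20. The difference was -0.61 for KIN10A, -0.71 for KIN10B and -0.51 for KIN10C under the deposited scaling, with adjusted p-values that also missed the threshold. The class was singled out after its values were seen.

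Kinesin-7 genes encode motors related to the animal centromere motor CENP-E, and the NACK type among them drives growth of the phragmoplast. Of the 7 members, 6 had a positive difference after quantile normalization, with a class median of 0.15, but with the deposited scaling or median centring 3 of these 6 (KIN7D, KIN7F and KIN7J) were negative. KIN7A (LOC4323990, the NACK gene, also DBS1) had 41.2 and 59.5 in the high bulks against 29.3 and 25.9 in the low bulks. Its log2 difference of 0.59 ± 0.22 did not pass (limma adjusted p = 0.474). The groups did not overlap under any of the 3 scalings, and the high arrays were further apart than the low ones. Without high grain number replicate 2 the difference was 0.40, and without high grain number replicate 1 it was 0.80. KIN7C (LOC4330142) had 557 and 581 in the high bulks against 456 and 495 in the low bulks (log2 difference 0.25 ± 0.18, limma adjusted p = 0.810). All 4 values lay within a narrow range and the order did not hold under the deposited scaling. KIN7J (451 ± 2.69 in the high bulks against 407 ± 38.9 in the low bulks, SD, n = 2) and KIN7L (36.8 ± 0.194 in the high bulks against 29.2 ± 5.07 in the low bulks) also had both high arrays above both low arrays. For KIN7J and KIN7L, too, the groups overlapped under the deposited scaling. KIN7D and KIN7F had overlapping groups, with differences of 0.15 and 0.092. KIN7K (LOC4349100) ran the other way, with 211 and 206 in the high bulks against 247 and 233 in the low bulks. Its log2 difference was -0.19 ± 0.19 (limma adjusted p = 0.884).

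**Figure D3:**
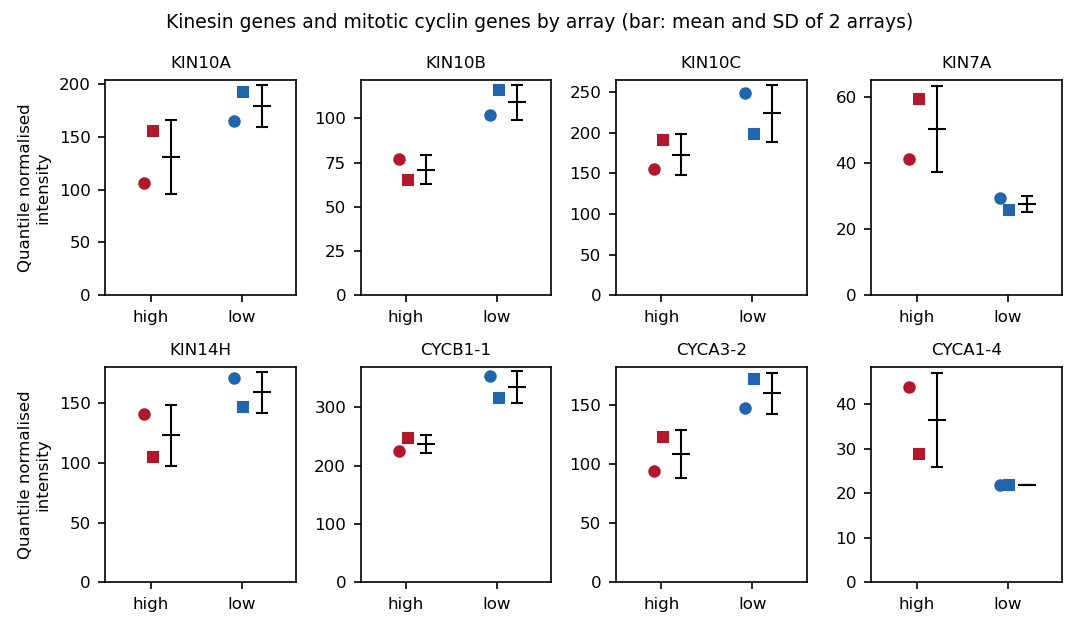
Quantile normalised intensity on each array for 5 kinesin genes and the 3 CYCA or CYCB cyclin genes with the smallest limma p. High grain number is in red at the left and low grain number in blue at the right. Circles mark replicate 1 and squares replicate 2, with the mean and SD of the 2 arrays as a black bar. KIN7A and CYCA1-4 are higher in the high bulks, and the other genes have both high arrays below both low arrays; none passed the test over all probe sets.

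Of the genes in classes 5 and 8, which have spindle roles, none passed the test. Kinesin-5 motors cross-link and slide antiparallel microtubules and hold the spindle poles apart. KIN5C (LOC9271005) had 322 and 465 in the high bulks against 299.6 and 385 in the low bulks (log2 difference 0.18 ± 0.22, limma adjusted p = 0.912). The groups overlapped, and the arrays with the number 2 were the higher ones in each. KIN5A (LOC9268593) had 97.6 and 44.9 in the high bulks against 65.9 and 66.8 in the low bulks, so the high arrays lay on either side of the low ones (0.016 ± 0.28). It is the kinesin gene with the widest gap between the high arrays, 0.90 on the log2 scale. KIN8B (LOC4334272) belongs to the class that shortens microtubules at their plus ends, as known from yeast and animal members. Its brighter probe set had 109.6 and 89.5 in the high bulks against 84.5 and 65.8 in the low bulks (log2 difference 0.34 ± 0.22, limma adjusted p = 0.776). Both high arrays lay above both low arrays, with a 95% interval of -0.14 to 0.83, but the groups overlapped under the deposited scaling, where the difference was 0.16. That probe set is of the kind whose probes can also match other sequences (name ending in x_at). The other probe set of KIN8B was dim, at 4.50 and 3.83 in the high bulks against 3.45 and 3.33 in the low bulks.

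Kinesin-12 motors act in the phragmoplast and in placing the division plane, as known from Arabidopsis. KIN12C (LOC4333349) had 416 and 255 in the high bulks against 340.4 and 283 in the low bulks (log2 difference 0.066 ± 0.24, limma adjusted p = 0.979). Here too the high arrays lay on either side of the low ones, and leaving out one or the other gave -0.27 or 0.40. KIN12E (LOC4344043) had 87.6 and 116 in the high bulks against 95.7 and 82.8 in the low bulks (log2 difference 0.15 ± 0.22, limma adjusted p = 0.926). The groups overlapped, and the sign turned under the deposited scaling, as it did for KIN12C.

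Further members have a known growth or fertility role in rice, as KIN10A does, and none of them passed the test. KIN4A (also GDD1), whose loss gives dwarf, brittle plants with disordered cellulose fibrils, had 553 and 563 in the high bulks against 524 and 504 in the low bulks. Its log2 difference was 0.11 ± 0.17 (limma adjusted p = 0.935), with an interval of -0.27 to 0.50 and a sign that turned under the deposited scaling. KIN13A (LOC4337845, also SRS3), whose loss gives small round seeds, had 201 and 238 in the high bulks against 175 and 223 in the low bulks (log2 difference 0.14 ± 0.21, limma adjusted p = 0.937). The groups overlapped, and the dimmer probe set of KIN13A gave -0.15 ± 0.22. The other class 13 gene, KIN13B (LOC4326684), had 187 and 235 in the high bulks against 224 and 257 in the low bulks (-0.18 ± 0.21). Its only probe set has a name ending in x_at, so its probes can also match other sequences. KIN1 (LOC4344521, also PSS1), needed for male meiosis and pollen fertility, had 300.4 and 184 in the high bulks against 188 and 171 in the low bulks. Its log2 difference of 0.36 ± 0.24 (limma adjusted p = 0.790) came from high grain number replicate 1, without which it was 0.031. The only probe set of KIN1 has a name ending in s_at, so its probes can also match other transcripts.

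Kinesin-14 motors walk towards microtubule minus ends, and the class is large in flowering plants, which lack cytoplasmic dynein. It held 14 of the 33 genes, of which 13 were tested. These had a median of 0.0013 and ran from -0.34 to 0.24, with 7 positive and 6 negative after quantile normalization. KIN14H had 141 and 105 in the high bulks against 171 and 147 in the low bulks (log2 difference -0.34 ± 0.22, limma adjusted p = 0.774). Its groups did not overlap under any of the 3 scalings, but without high grain number replicate 2 the difference was -0.15. KIN14I (also KCBP), a calmodulin-binding kinesin, had 357 and 346 in the high bulks against 314 and 310.3 in the low bulks (log2 difference 0.16 ± 0.18, limma adjusted p = 0.905). That order rested on the scaling, since its difference was -0.012 under the deposited one. KIN14E lay lower on both high arrays, at 189 ± 6.06 against 211 ± 1.11 in the low bulks (SD, n = 2). Under the deposited scaling its groups overlapped, at 169.9 and 180.1 in the high bulks against 179.9 and 275 in the low bulks. KIN14Q (also KCH1), which binds actin as well as microtubules, had 36.5 and 33.6 in the high bulks against 37.2 and 32.5 in the low bulks, with a difference of 0.0067. KIN14A, KIN14C, KIN14F, KIN14K, KIN14L, KIN14M, KIN14N, KIN14O and KIN14R had overlapping groups on quantile normalised values, though KIN14F and KIN14O lay lower on both high arrays with the deposited scaling and with median centring.

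Several kinesin-14 genes were too dim to be read closely. KIN14B was not tested, with 0.45 and 0.50 in the high bulks against 1.05 and 3.95 in the low bulks. KIN14M had 5.83 and 6.0 in the high bulks against 6.30 and 3.67 in the low bulks, below the 16 added to each value. KIN14K had 3 probe sets, and the choice between them mattered. The brightest had 28.3 and 13.6 in the high bulks against 14.6 and 14.9 in the low bulks (0.24 ± 0.23), with overlapping groups. The next had nearly the same mean, at 28.9 and 19.3 in the high bulks against 13.6 and 9.45 in the low bulks (log2 difference 0.54 ± 0.21, limma adjusted p = 0.529), with no overlap. Each of these probe sets has a name ending in x_at.

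The spread between replicates was close to that of all probe sets, though the kinesin genes were brighter. A mean intensity of 16 or more was reached by 31 of 32 kinesin genes, against 18667 of 34316 probe sets tested. The added 16 narrows the spread of dim probe sets. The median SD of the 2 arrays was 0.18 (high bulks) and 0.13 (low bulks) for the kinesin genes, and 0.16 and 0.14 for all probe sets tested. The high arrays were at least 1.5-fold apart for 3 of 32 kinesin genes (KIN1, KIN5A and KIN12C), or 9.38%, against 9.22% of all probe sets. The low arrays were that far apart for 0 of 32 kinesin genes, against 5.72% of all probe sets.

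**Figure D4:**
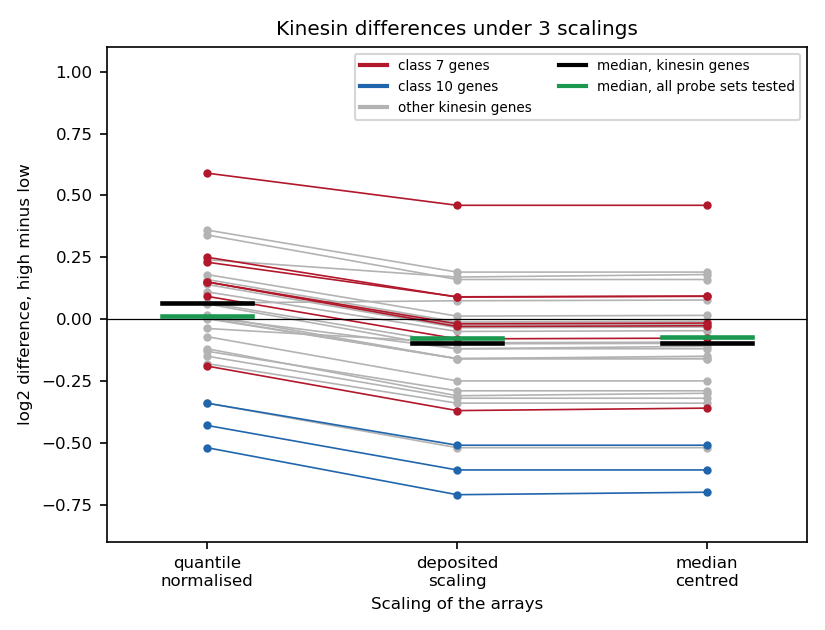
Log2 difference (high minus low grain number) of the 32 tested kinesin genes under 3 scalings, 1 line per gene, with class 7 in red, class 10 in blue and the medians as bars. Every line but that of KIN14M drops from the quantile normalised values to the other scalings, the kinesin median going below 0, while KIN10A, KIN10B and KIN10C stay negative and KIN7A stays positive.

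The other genes of the microtubule and division machinery that were matched by name gave no call either. All 10 tubulin genes matched by name, among them the gamma-tubulin gene TUBG2, were tested. Of the 10, 0 passed (limma, 0 at an unadjusted p under 0.05, against 8.24% of all probe sets). After quantile normalization a positive difference was seen for 7 and a negative one for 3, against 52.1% and 47.9% of all probe sets. The median was 0.065. The gene lists of this paragraph were not refitted under the other scalings, under which many kinesin differences of this size turned sign. The members with the smallest p were OsTUB8, with 11.1 and 22.2 in the high bulks against 35.2 and 24.0 in the low bulks (log2 difference -0.49 ± 0.24, limma adjusted p = 0.647), and TUB3, with 776 and 687 in the high bulks against 1045 and 847 in the low bulks (-0.36 ± 0.18, adjusted p = 0.660). MOR1, a microtubule polymerase, was the only gene matched in a planned list of microtubule binding and severing genes. It had 977 and 968 in the high bulks against 879 and 896 in the low bulks (0.13 ± 0.16). As deposited, its groups overlapped, at 881 and 936 in the high bulks against 774 and 1134 in the low bulks. Of 8 genes with CYCA, CYCB or CDKB names, listed as mitotic cyclins and B-type CDKs by name alone, 0 passed (limma). At an unadjusted limma p under 0.05 there were 2, both lower, or 25.0% against 8.24% of all probe sets (4.39% lower). Of the 8, 6 were negative, against 47.9% of all probe sets, and the median was -0.23. With quantile normalised values, both high arrays lay below both low arrays for 5 of the 8 and above them for 1. That is 75.0% in all, against 37.1% of all probe sets. CYCB1-1 (LOC4327547) had 226 and 248 in the high bulks against 354 and 316 in the low bulks (log2 difference -0.47 ± 0.19, limma adjusted p = 0.546). CYCA3-2 (LOC4352642) had 93.8 and 123 in the high bulks against 147 and 172 in the low bulks (log2 difference -0.50 ± 0.22, limma adjusted p = 0.574). CYCA1-4 (LOC4338177) ran the other way, with 43.9 and 28.9 in the high bulks against 21.9 and 21.9 in the low bulks (log2 difference 0.45 ± 0.22, limma adjusted p = 0.649), and the other positive member, a CYCB2 gene (LOC4342121), had overlapping groups (0.19 ± 0.21). CDKB2-1 had 186 and 191 in the high bulks against 209.8 and 252 in the low bulks (-0.27 ± 0.20). OsPCNA, a DNA replication clamp that also marks dividing cells, had 878 and 1075 in the high bulks against 1009 and 985 in the low bulks, with overlap.

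Some marker genes of other tissues passed the test, as did 0.568% of all probe sets tested (0.154% higher and 0.414% lower). Of 5 measured genes in the stem secondary wall list, 3 passed, all lower in the high bulks, and the list's summed intensity was 78.9 and 105 in the high bulks against 357 and 438 in the low bulks. The cellulose synthase gene CESA7 had 11.5 and 10.9 in the high bulks against 109.6 and 106 in the low bulks (log2 difference -2.19 ± 0.20, limma adjusted p = 6.75e-04). CESA4 had 31.1 and 48.4 in the high bulks against 142 and 204 in the low bulks, and BC1 (LOC4333114) had 6.62 and 20.6 in the high bulks against 63.5 and 91.6 in the low bulks. CESA9 did not pass, and nor did a bHLH gene (LOC4347540) that shares the synonym BC1. That gene is counted among the 5 and in the sum, with 26.9 and 17.8 in the high bulks against 16.2 and 19.6 in the low bulks. Of the 2 measured anther tapetum genes 1 passed, RTS, which was close to 0 in the high bulks (1.52 and 0.875) against 224 and 553 in the low bulks. TDR, the other one, had 57.8 and 43.8 in the high bulks against 45.4 and 39.4 in the low bulks (0.19 ± 0.22), so the list's sum, 59.3 and 44.7 in the high bulks against 269 and 592 in the low bulks, was lower through RTS alone. The part of these tissues, and of the RNA quality ratios, in the lower kinesin-10 values was not tested. None of the 5 later floral organ genes passed, and they summed to 1450 and 1235 in the high bulks against 1416 and 1346 in the low bulks. The smallest p there were those of MADS3, with 1.65 and 17.8 in the high bulks against 7.92 and 21.8 in the low bulks, and MADS58, with 338 and 259 in the high bulks against 243 and 272 in the low bulks. Of the leaf photosynthesis genes, RBCS had 40.1 and 64.7 in the high bulks against 34.7 and 33.6 in the low bulks and CAB2R had 2410 and 1896 in the high bulks against 2479 and 2073 in the low bulks, and neither passed.

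The genes lying near the kinesin genes were also looked up. In the gene order of the RefSeq assembly ASM3414082v1, 5 of the 32 tested kinesin genes (15.6%) had a gene past the threshold among the 10 measured genes on either side, against 12.9% of all 16069 genes with a tested probe set. KIN14K lay 6 measured genes from LOC4339343, the heat shock disaggregase HSP101, which had a log2 difference of -1.60 ± 0.22 (limma adjusted p = 0.00788). The others were KIN7F, KIN14F, KIN14M and KIN14O, each with 1 called neighbour, all of them lower in the high bulks.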

How the data were processed

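The authors deposited 1 linear intensity per probe set and array. GCOS 1.2 (Affymetrix scanner software) is named per the submitters' processing notes, and the scaling target is not given in the sources used here. The 187 control probe sets were left out. Intensities were quantile normalised, put on the log2(intensity + 16) scale and filtered at the 40th percentile of the mean. The bulks were compared by limma's moderated test (limma 3.58.1, R 4.3.3, intensity trend allowed), fitted on group alone without a replicate block, and p-values were adjusted by Benjamini-Hochberg over 34316 probe sets.

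Probe sets were named through GEO's platform annotation, which can be old, and RefSeq's gene table (ASM3414082v1). Of the probe sets, 22436 were paired with 1 gene. The probe set with the highest mean was used per gene. Array values are given for the 4 kinesin genes per direction with the smallest p, the brightest of each class, and those with known rice phenotypes; of other lists, for the 2 members with the smallest p (3 where tied) and any that passed. Further genes were picked from their values. The members and lists were chosen with earlier results of these data known. The planned spindle checkpoint and myosin lists matched 0 genes by symbol, and the planned sequence descriptions were not run. The steps were tested on simulated data. Alternatives varied scaling, pseudocount, filter, replicate block, arrays, probe set choice and name matching.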

Additional observations from a re-analysis of the deposited data

How the results depend on the processing

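No kinesin gene passed an adjusted p of 0.05 in limma under any alternative run, with at most 2 in a direction at an unadjusted p under 0.05. The count over all probe sets (195) was 391 after median centring, 128 with log2(value + 1), 0 with no filter (limma, 3849 at an unadjusted p under 0.05), 654 with the replicate number as a block and 53 to 229 without 1 array. Where this leaves a bulk with 1 array, the spread is taken from the other bulk and, through limma's moderation, from all probe sets. With the replicate block, 2 kinesin genes were lower at an unadjusted limma p under 0.05 (1 without it). Of all 34316 probe sets, 2828 reached that level in either direction without the block and 3630 with it, so the count rose generally. It was 1905 for the authors' scaling and 2509 once the arrays had equal medians. The smallest kinesin adjusted p with the block was 0.257. No kinesin gene passed with the block, and the other gene lists were not refitted with it. The labels give the arrays only a shared number. The deviations of same-numbered arrays correlated at 0.111 across all probe sets and 0.267 across the kinesin genes. The deposited medians (5.0 and 6.30 in the high bulks against 4.90 and 6.5 in the low bulks, replicates 1 and 2) also went with the number. At an unadjusted p under 0.05, 1 kinesin gene was higher and 1 lower. These were 0 and 0 under the deposited scaling and among the 4 genes matched by symbol, and 0 were higher after median centring. Without 1 array they were 0 to 2 higher and 0 to 1 lower, with 0 without either low array and 2 higher without high grain number replicate 2. The kinesin median (0.063) was -0.098 with the deposited scaling and -0.095 with median centring, and without 1 array it ranged from 0.0063 to 0.055.

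Of 383 values of single kinesin genes under alternatives, 334 kept their sign and 49 did not, and 13 of 32 genes kept it throughout. Where groups do not overlap, leaving out an array cannot turn the sign, save through the quantile normalization redone on the remaining arrays. With the deposited scaling and with median centring, these genes turned negative: KIN4A (-0.050 and -0.047), KIN5A (-0.16 and -0.16), KIN7D (-0.030 and -0.027), KIN7F (-0.080 and -0.077), KIN7J (-0.019 and -0.016), KIN12C (-0.10 and -0.098), KIN12E (-0.024 and -0.021), KIN13A (-0.035 and -0.032), KIN14A (-0.16 and -0.15), KIN14I (-0.012 and -0.0089), KIN14L (-0.12 and -0.11), KIN14Q (-0.12 and -0.12) and KIN14R (-0.16 and -0.16). KIN5A was at -9.3e-05 with log2(value + 1), and KIN13A at -0.0071 as the mean of its probe sets. Without 1 array, the differences ranged from -0.44 to 0.47 for KIN5A, -0.071 to 0.44 for KIN5C, -0.0042 to 0.30 for KIN7D, -0.048 to 0.23 for KIN7F, -0.27 to 0.40 for KIN12C, -0.019 to 0.33 for KIN12E, -0.026 to 0.29 for KIN13A, -0.17 to 0.18 for KIN14A, -0.23 to 0.088 for KIN14C, -0.054 to 0.54 for KIN14K, -0.012 to 0.13 for KIN14L, -0.023 to 0.16 for KIN14M, -0.28 to 0.033 for KIN14N, -0.15 to 0.092 for KIN14O, -0.058 to 0.076 for KIN14Q and -0.19 to 0.20 for KIN14R. The cause was not tested. Signal over background is not given in the deposited values, which limits what can be said of the dim genes.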
